A study of Mus musculus with 24 samples.

Results

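Focal copy number losses on murine Chr 14 and the genes inside them were described in adrenal glands and neuroblastoma tumours of transgenic mice. The genes are Anxa11, Plac9, Tmem254, Cphx1 and Duxbl1 in cluster 1, Gm8126, Gm8127 and 1700001F09Rik in cluster 2, and Gm5799 in cluster 3. They are 9 of 20621 protein-coding autosomal genes, and each lies in, or reaches into, 1 of 3 short stretches that were called lost in at least 75% of the samples of at least 1 group. A loss was a segment with a log2 ratio of at most -0.4 relative to wildtype adrenal glands. Since the stretches were chosen by these same calls, all counts and levels of loss are given as a description and no groups were tested against each other.

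Shallow whole genome sequencing (sWGS), which reads a genome thinly and infers copy number from read counts in windows, gave segment values for 21 samples. All transgenes sit at the Rosa26 locus, and in CRE + animals an iCre driven by Dbh, a gene of sympathoadrenal cells, switches them on. The AGM group holds 5 adrenal glands labelled MYCN fl/wt, CRE +. The TI group holds 8 neuroblastoma tumours labelled IGF2BP1 +/+, CRE +, except replicate 1, which is labelled IGF2BP1 +/-, CRE +. The TIM group holds 8 neuroblastoma tumours labelled IMP1/MYCN, CRE +, where IMP1 is another name of IGF2BP1. The authors took the 3 wildtype adrenal glands (AG, labelled CRE -) as the reference, for which the table lists no segments. Tumours of the adrenal gland, by their labels, are replicate 6 of TI and replicates 1 and 5 of TIM. Strain and age are not in the labels.

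Sample titles carry the prefix SH or AGH, which the labels do not explain. All 5 AGM and all 8 TIM samples have AGH. Of the TI tumours 7 have SH and only replicate 8 has AGH, and the 3 AG reference samples have SH. Prefix and group can therefore not be told apart in any comparison of TI with the other groups, and counts are given for both. No 2 samples shared the same Chr 14 segments (0 of 210 pairs). Reads per window were not used here, so depth was not analysed. Intervals of counts cover the sampling of samples only, which the labels do not trace to separate animals. They make no allowance for the choice of the clusters by these same calls, so their stated level need not hold.

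Annexins are proteins that bind phospholipid membranes when calcium is present, and annexin A11, made from Anxa11, also links RNA granules to lysosomes that travel along axons. Plac9 encodes a small secreted protein first described in placenta, and Tmem254 encodes a transmembrane protein. Cphx1 and Duxbl1 encode homeodomain proteins, a class of DNA-binding factors. Cphx1 is known from oocytes and early embryos, and Duxbl1 belongs to the double homeobox (DUX) family, members of which act around the onset of embryonic transcription. Gm8126, Gm8127, 1700001F09Rik and Gm5799 are named only by identifiers of predicted genes or cDNA clones.

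All positions are given on GRCm39, the build of the deposited segments, with genes from GENCODE M39. Cluster 1 spanned 140 kb (chr14:25880001-26020000) and held 7 annotated genes, of which 5 are protein coding, 1 is a long non-coding RNA gene and 1 is a pseudogene. Cluster 2 spanned 180 kb (chr14:43100001-43280000) with 14 genes, of which 3 are protein coding, 3 are long non-coding RNA genes and 8 are pseudogenes. Cluster 3 spanned 80 kb (chr14:43700001-43780000) and held 3 genes, namely Gm5799 and 2 pseudogenes. Every edge of the losses fell on a 20 kb grid, so the clusters are 7, 9 and 4 bins long.

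Between clusters 2 and 3 the reference sequence is not known. An assembly gap of 430 kb (chr14:43277402-43707401) filled the space between them and took the last 2599 bases of cluster 2 and the first 7401 bases of cluster 3 (9.25% of it). The 60 bases on either side of this gap, shown because they mark where the losses of both clusters ended in the reference, read on the plus strand as follows (nothing is in capitals).
Before the gap, chr14:43277342-43277401: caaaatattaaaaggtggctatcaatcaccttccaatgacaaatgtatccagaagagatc
After the gap, chr14:43707402-43707461: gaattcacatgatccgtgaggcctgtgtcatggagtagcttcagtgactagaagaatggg

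The same sequence occurred in both clusters. Of all distinct stretches of 31 bases (31-mers, both strands joined) in cluster 3, 84.6% were also present in cluster 2, which is 39.2% of those in cluster 2. Cluster 1 shared 0.54% of its 31-mers with cluster 2. In cluster 2, 91.2% of positions held a 31-mer found more than once on Chr 14, and in cluster 3 94.6% did. The value was 10.2% in cluster 1, against a median of 6.78% over 6059 windows of 20 kb on Chr 14, of which 8.85% were above 50%. The sequence around clusters 2 and 3 was similarly repeated, with medians of 85.5% over the 200 kb before cluster 2 (65.6 to 95.6%, 10 windows) and 84.7% over the 200 kb behind cluster 3 (38.8 to 93.6%), so the repeats are not particular to the lost stretches. How far reads of the length sequenced here can be placed in such sequence was not analysed. How reads with several positions were handled is not given in the sources used here, and the part of repeated sequence in the losses was not tested.

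**Figure D1:**
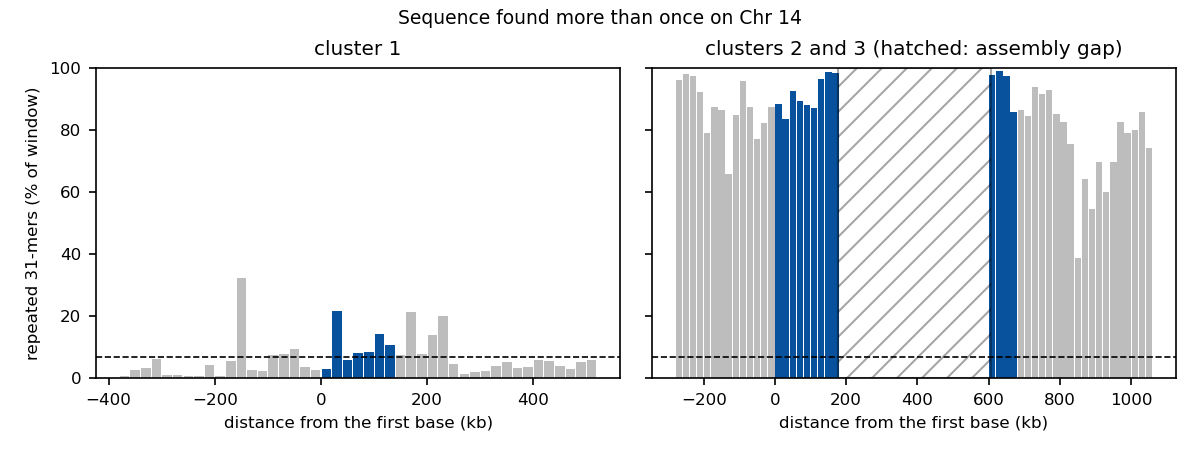
Share of positions in each 20 kb window whose 31-mer occurs more than once on Chr 14 (y axis, %), plotted against the distance in kb from the first base of cluster 1 (left) or cluster 2 (right). Blue bars are windows inside the clusters, grey bars are windows outside them, the dashed line is the Chr 14 median of 6.78% and the hatched span is the assembly gap. Grey windows beside clusters 2 and 3 are also high, windows of cluster 1 lie between 2.77% and 21.6%, those of cluster 2 between 83.4% and 98.7% and those of cluster 3 between 85.6% and 98.8%.

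An upstream window of Gm8126 illustrates the sharing between clusters. The table of RefSeq upstream windows used here matched 6 of the 9 genes (not Duxbl1, Gm8127 and 1700001F09Rik), and the 250 bases before the second listed start of Gm8126 matched GRCm39 Chr 14 exactly at 2 places. The first was in cluster 2, just before Gm8126 (chr14:43115828-43116077, plus strand). The second was 665 kb away inside the gene body of Gm5799 (chr14:43780797-43781046, plus strand) and began 797 bases past the end of cluster 3. The RefSeq upstream window of Gm5799 itself also matched at 2 places, 1 in cluster 2 (chr14:43115869-43116118) and 1 behind cluster 3 (chr14:43780838-43781087), so sequence alone does not place the RefSeq start of Gm5799. The window of the first listed start of Gm8126 lay before cluster 2 (chr14:43066500-43066749, plus strand). Lengths of genes lost are therefore those of the GENCODE models. The window, from RefSeq (table of GRCm38.p6), is given in lower case throughout, since all of it was identical at both places.
Gm8126 upstream window: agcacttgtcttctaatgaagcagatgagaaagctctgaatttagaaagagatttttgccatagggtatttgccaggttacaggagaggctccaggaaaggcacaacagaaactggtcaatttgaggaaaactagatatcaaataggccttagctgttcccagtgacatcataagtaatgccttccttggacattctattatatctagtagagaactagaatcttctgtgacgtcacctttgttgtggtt

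Coding sequences of some of the unnamed genes resembled each other over the bases that could be aligned. The coding sequence of 1700001F09Rik in cluster 2 matched that of Gm10375, which lies 60.1 kb beyond cluster 3, at 505 of 507 aligned bases (99.6%). Gm8127 matched Gm8122, which lies 7.24 kb before cluster 2, at 97.3% of 628 aligned bases. Gm8127 and 1700001F09Rik, both in cluster 2, matched at 91.7% of 492 aligned bases, and Gm8126 and Gm5799, of different clusters, at 86.9% of 578. With gaps counted the identity over the alignment was 91.5% for the first pair, 95.02% for the second, 65.1% for the third and 63.3% for the last. Gm8126 and Gm8127, neighbours in cluster 2, matched at only 62.1% of 594 aligned bases. The first 180 coding bases of 1700001F09Rik and Gm10375 are printed because 1 member of the pair was lost in 18 samples and the other in 0. The single base at which they differ within this stretch is in capitals.
1700001F09Rik: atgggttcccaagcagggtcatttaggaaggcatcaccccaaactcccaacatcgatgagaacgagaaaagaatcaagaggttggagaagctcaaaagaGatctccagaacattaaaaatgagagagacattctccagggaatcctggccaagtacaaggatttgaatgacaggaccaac
Gm10375: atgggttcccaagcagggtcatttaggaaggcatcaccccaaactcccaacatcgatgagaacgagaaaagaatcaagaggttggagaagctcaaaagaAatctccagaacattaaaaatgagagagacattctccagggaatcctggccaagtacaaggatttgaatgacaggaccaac

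Cluster 1 differed in another way between genome builds. RefSeq on GRCm38.p6 lists the genes between Anxa11 and Slmap in the order Plac9a, Tmem254a, Cphx1, Duxbl1, Gm9780, Tmem254c, Cphx2, Duxbl2, Plac9b, Tmem254b, Cphx3 and Duxbl3, that is 3 genes of each kind. GENCODE M39 on GRCm39 lists 1 Plac9, 1 Tmem254, 1 Cphx1 and 1 Duxbl1 and none of the other names. All 12 RefSeq upstream windows of the Plac9, Tmem254 and Cphx copies had exactly 1 exact match on GRCm39 Chr 14, inside cluster 1. The first windows of Tmem254a and Tmem254c, those of Gm9780 and Plac9b, and those of Cphx2 and Cphx3 were identical over 250 bases, while the second windows of Tmem254a and Tmem254c were not. The identical window of Tmem254a and Tmem254c, from RefSeq (table of GRCm38.p6) and in lower case throughout, matched chr14:25928097-25928346 of GRCm39 on the minus strand, immediately before Tmem254.
Tmem254a and Tmem254c upstream window: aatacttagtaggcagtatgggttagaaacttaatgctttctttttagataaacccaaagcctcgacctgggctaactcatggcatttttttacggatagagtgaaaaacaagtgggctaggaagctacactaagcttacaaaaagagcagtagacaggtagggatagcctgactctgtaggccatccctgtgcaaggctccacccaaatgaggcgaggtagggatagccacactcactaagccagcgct

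The number of annotated copies bears on how the values are read. The log2 ratio compares a sample with the AG adrenal glands, and the deposited copy number sets the reference to 2 (it equalled 2 times 2 to the power of the median to 1 decimal in 1485 of 1485 segments). A copy number of 1.0 in cluster 1 thus restates the log2 ratio that cn.MOPS, the program the authors used, assigned to the segment. It is neither a read level measured here nor a count of gene copies in the animal.

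Loss of cluster 1 was called in all AGM and TIM samples and in part of the TI tumours. It was present in 5 of 5 AGM samples (95% Clopper-Pearson interval from 47.8%), in 8 of 8 TIM tumours (from 63.1%) and in 4 of 8 TI tumours (15.7 to 84.3%), namely replicates 2, 4, 5 and 8. The genes Plac9, Tmem254, Cphx1 and Duxbl1 were lost over their whole length in these 17 samples. Among protein-coding autosomal genes, 15 of 20621 (0.0727%) were lost in 5 AGM samples, 10 (0.0485%) in at least 4 TI tumours and 15 (0.0727%) in at least 7 TIM tumours. The rule used these calls, so nothing is read from those shares. Of the 15 genes lost in all AGM samples 3 lay on Chr 5, 3 on Chr 13 and 9 on Chr 14, and the latter were the 9 genes described here.

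Cluster 2 was lost most often and cluster 3 least often. The loss of cluster 2, with Gm8126, Gm8127 and 1700001F09Rik over the whole length of their GENCODE models, was called in 5 of 5 AGM samples, 8 of 8 TIM tumours and 5 of 8 TI tumours (24.5 to 91.5%), namely TI replicates 2, 3, 5, 6 and 8. The loss of cluster 3, with Gm5799, was called in 5 of 5 AGM samples, 7 of 8 TIM tumours (47.3 to 99.7%) and 4 of 8 TI tumours (15.7 to 84.3%). The TI tumours with it were replicates 2, 3, 6 and 8, and the TIM tumour without it was replicate 1. Whether 17, 18 and 16 samples differ was not tested.

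Split by title prefix, the same counts read differently. Samples with AGH had the loss in 14 of 14 at cluster 1, 14 of 14 at cluster 2 and 13 of 14 at cluster 3. Samples with SH, all of them TI tumours, had it in 3 of 7, 4 of 7 and 3 of 7. The only TI tumour with AGH, replicate 8, had all 3 losses. The division by prefix was therefore that by group except for this tumour, and the 3 reference adrenal glands have the prefix of the samples with fewer losses. The part of the prefix in the counts was not tested.

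The losses occurred together in most samples. All 3 clusters were lost in 14 samples, which were the 5 AGM samples, TI replicates 2 and 8, and the 7 TIM tumours other than replicate 1. Clusters 1 and 2 without cluster 3 were lost in TI replicate 5 and TIM replicate 1. Clusters 2 and 3 without cluster 1 were lost in TI replicates 3 and 6. TI replicate 4 had only the loss of cluster 1, and TI replicates 1 and 7 had none. In no sample was cluster 3 lost without cluster 2. Combinations other than all 3 were thus found in 6 of 8 TI tumours and 1 of 8 TIM tumours, and in 0 of 5 AGM samples.

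The called depth of the losses took few values. Of 51 called pairs of a cluster and a sample (of 63), 48 had a median log2 ratio of -1.00, a copy number of 1.0. At cluster 1 this was the value in each of the 17 samples with the loss. Plac9, Tmem254, Cphx1 and Duxbl1 thus had the same called value in AGM, TI and TIM. These values come from the copy number calling, and whether read depth was equal was not tested. The exceptions among the 51 pairs were cluster 2 in TIM replicate 12 at -0.88 (copy number 1.1), and cluster 3 in TI replicate 2 at -0.73 (1.2) and in TI replicate 3 at -0.87 (1.1). The value of TI replicate 2 was the closest inside the threshold, and the closest outside was -0.29 (copy number 1.6), the value of TI replicate 7 at all 3 clusters. No median lay between these. Samples with and without the loss were divided by the threshold on this same median, so separate ranges follow from the call. By the segment mean the closest values at cluster 2 were -0.60 in TIM replicate 12, with the loss, and -0.40 in TI replicate 7, without it.

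Values without a call were near 0 except in TI replicates 6 and 7. At cluster 1 TI replicates 1, 3 and 6 had 0.0047, 0.00 and 0.17. At cluster 2 TI replicates 1 and 4 had 0.0047 and 0.0017, and at cluster 3 TI replicates 1, 4 and 5 had 0.0047, 0.0017 and -0.081 and TIM replicate 1 had 0.0085. The 0.17 of TI replicate 6 was the only value above 0.01, and the segment it comes from covered 31.6 Mb.

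**Figure D2:**
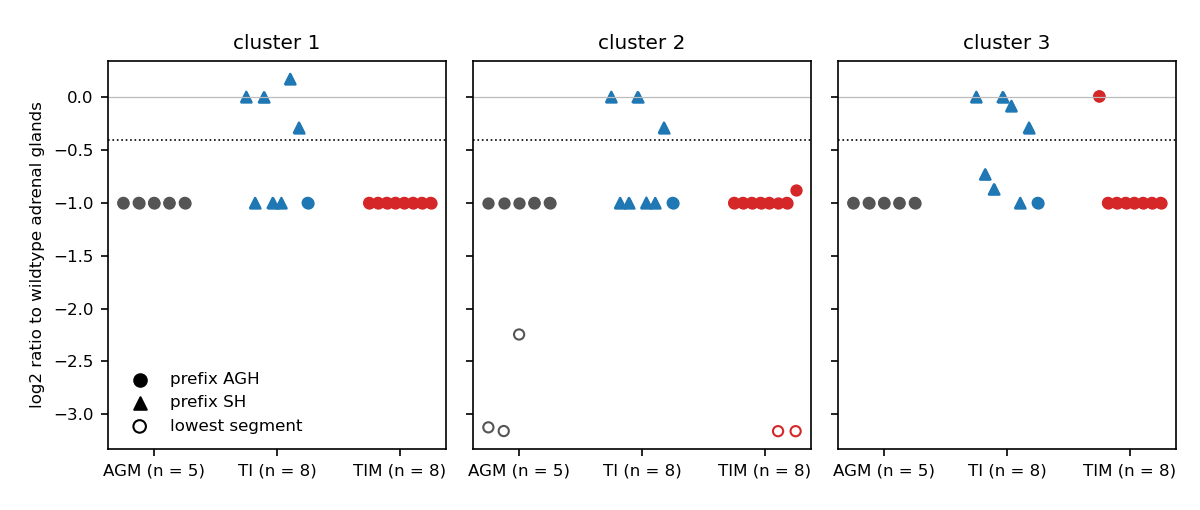
Median log2 ratio to wildtype adrenal glands (y axis) of the segment covering most of each cluster, 1 filled symbol per sample, by group (x axis), with circles for title prefix AGH and triangles for SH. Open symbols stand for the lowest segment inside the cluster where it differs, the dotted line is the loss threshold of -0.4, and no error bars are drawn since each symbol is 1 sample. All AGM values lie at -1.00, the TI values are split between -1.00 and 0.17, and the 5 separate open symbols in cluster 2 lie between -3.16 and -2.25.

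Inside cluster 2 the loss was deeper on the side of the gap. In 5 samples (3 AGM, 2 TIM) the last 80 kb (chr14:43200001-43280000, 4 bins) formed a segment of its own. Its median log2 ratio was -3.12 in AGM replicate 1, -3.16 in AGM replicate 2 and -2.25 (copy number 0.4) in AGM replicate 3. It was -3.16 (copy number 0.2) in both TIM replicate 9 and TIM replicate 12. Gm8126 and Gm8127 lie before this edge and stayed at -1.00 in 4 of these samples and at -0.88 in TIM replicate 12.

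1700001F09Rik (chr14:43199840-43205268, minus strand, ENSMUSG00000095384) crossed the edge of the deep segment. Nearly all of the gene lay in the deep segment in the same 5 samples, so that its values ran from -3.16 to -1.00 over the 18 samples with the loss. Among the 9 genes it was the only one below -1.00 by more than rounding. The lowest median in the whole table was -5.32, in 21 segments. The middle between that value and -1.00 is -3.16, the level of 3 of the 5 deep segments to 2 decimals, and a median over an even number of bins can take such a middle value. The deposited table holds no values per bin, so whether it did was not tested.

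The segment means showed low bins in further samples. A mean of at most -1.2, a limit chosen after the values were seen, was found at cluster 2 in 8 samples with an undivided segment and a median of -1.00. These were AGM replicate 5, TI replicates 6 and 8, and TIM replicates 4, 5, 7, 8 and 11, with means from -1.67 to -1.44. In the other 5 samples with an undivided loss, AGM replicate 4, TI replicates 2, 3 and 5 and TIM replicate 1, the mean lay between -1.00 and -0.86. Thus at least 13 of 18 samples with the loss of cluster 2 held bins below -1.00 in either form. Among them were 4 of 5 AGM samples, 2 of 5 TI tumours and 7 of 8 TIM tumours. Values per bin are not given, so lower bins in the other 5 samples could not be seen.

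At cluster 3, with Gm5799, no sample had a separate deep segment. The mean was at most -1.2 in 6 samples, AGM replicate 1 and TIM replicates 4, 5, 9, 11 and 12, with values from -1.54 to -1.26. In the other 10 samples it lay between -1.06 and -0.72. At cluster 1 the mean stayed between -1.00 and -0.89 in all 17 samples, which covers Plac9, Tmem254, Cphx1 and Duxbl1.

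Edges of the losses were shared to the bin on the side of the gap. The loss of cluster 2 ended at 43280000 in 18 of 18 samples, and the loss of cluster 3 began at 43700001 in 16 of 16. Both positions are the borders of the bins that hold the ends of the assembly gap. In 16 of 21 samples the 420 kb between them formed a segment of its own with a log2 ratio of 0, and every base of it is unknown in the reference. No reads can be placed there, so a focal loss that reached the gap could be followed no further. The shared edges are therefore not breakpoints. Whether the losses of clusters 2 and 3 are joined across the gap cannot be told.

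On the side away from the gap the edges varied. The loss of cluster 2 began at 43100001 in 11 samples and at 43080001 in 3 (AGM replicate 1, TIM replicates 5 and 9). It began farther out at 43060001 in AGM replicate 4, 43040001 in TI replicate 3, 42920001 in TI replicate 5 and, outermost, 42880001 in TIM replicate 12. Counted up to the gap, the lost length therefore ranged from 180 to 400 kb, with a median of 180 kb. Gm8122, the next protein-coding gene before cluster 2, was included in 2 AGM, 2 TI and 3 TIM samples.

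The far edge of cluster 3 decided how much of Gm5799 was lost. Gm5799 (chr14:43735056-43788979, plus strand, 53.9 kb, 6 exons, ENSMUSG00000091477) reaches past the end of the cluster. The loss ended at 43800000 in 10 samples, at 43820000 (TI replicate 2) or at 43840000 (TIM replicate 11), which took in the whole gene. In AGM replicates 4 and 5 and TIM replicates 4 and 8 it ended at 43780000 and covered 83.3% of the gene body with 2 of 6 exons in the GENCODE model. Counted from the bin at the end of the gap, the lost length was 80 to 140 kb. Gm10375, the next protein-coding gene, was lost in 0 of 21 samples.

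**Figure D3:**
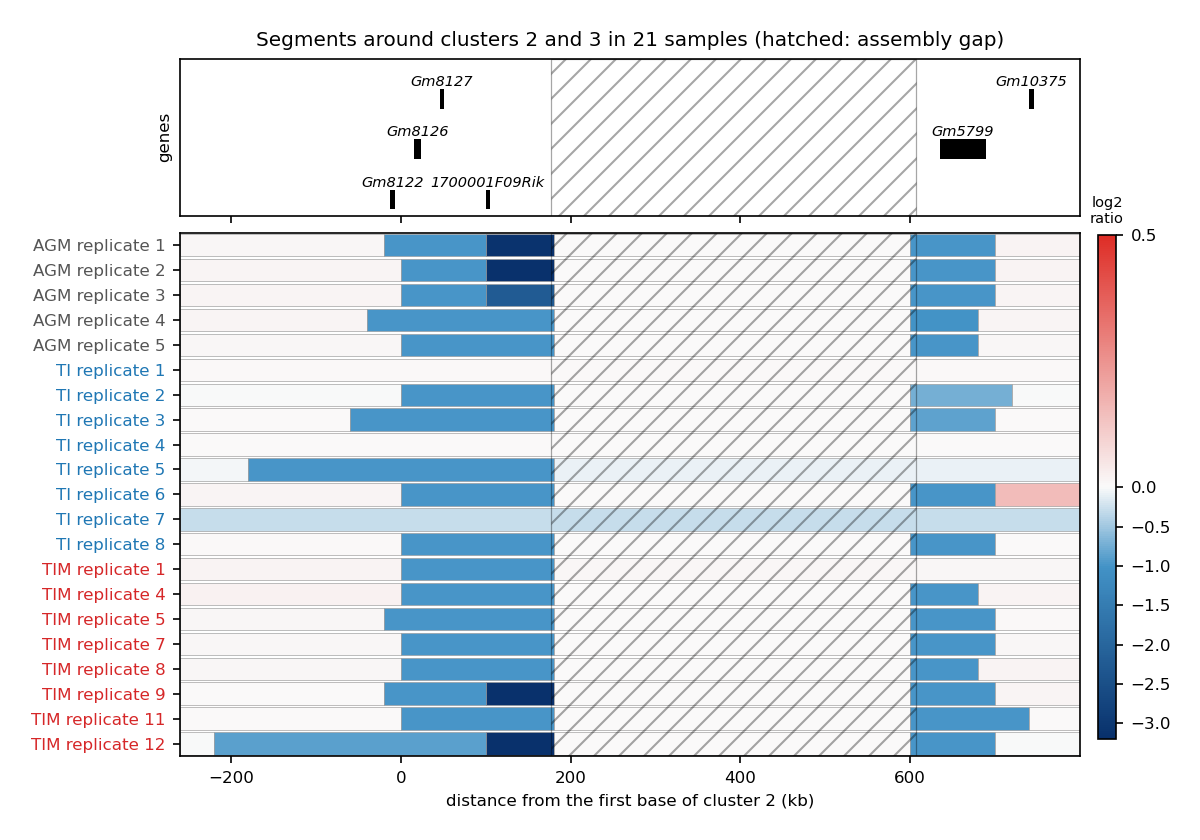
Segments of 21 samples (rows) around clusters 2 and 3, coloured by median log2 ratio (blue for lower, red for higher than wildtype adrenal glands, values under -3.2 drawn as -3.2), with protein-coding genes above and the assembly gap hatched. The x axis is the distance in kb from the first base of cluster 2, AGM labels are grey, TI labels blue and TIM labels red. Losses end at the same bin on each side of the gap in all samples that have them, and the known sequence ends there too. A darker segment of 80 kb lies before the gap in 5 samples.

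At cluster 1 both edges varied by a few bins. The loss began at 25860001 in 11 samples (3 AGM, 4 TI and 4 TIM) and at 25880001 in 6 (2 AGM and 4 TIM). It ended at 26020000 in 12 samples, at 26000000 in AGM replicate 3 and TIM replicate 7, and at 26040000 in TI replicates 4 and 5 and TIM replicate 11. The lost length was 140 to 180 kb with a median of 160 kb. There were 5 pairs of edges among the 17 samples, and each of them lay within 20 kb of the cluster.

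The first edge lay inside Anxa11, so the annexin gene was never lost as a whole. Anxa11 (chr14:25842547-25887229, plus strand, 44.7 kb, ENSMUSG00000021866) has 15 exons in the annotation. Where the loss began at 25860001 it covered 60.9% of the gene body and 14 exons, leaving out only the first exon. Where it began at 25880001 it covered 16.2% and the last 4 exons, and the larger stretch before it was near a log2 ratio of 0. The covered part was at -1.00 in all 17 samples, and the start of the gene was lost in 0 of 21.

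The genes behind Anxa11 lay clear of both edges. Plac9 (chr14:25886804-25903634, minus strand, ENSMUSG00000095304) overlaps the end of Anxa11. Tmem254 (chr14:25923724-25928096, minus strand, ENSMUSG00000072676) and Cphx1 (chr14:25938728-25956780, plus strand, ENSMUSG00000095975) follow. Duxbl1 (chr14:25979001-25990577, plus strand, ENSMUSG00000048502) is the last, and even the losses that ended at 26000000 included it. All 4 were at -1.00 in the same 17 samples and each lay in a single segment.

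**Figure D4:**
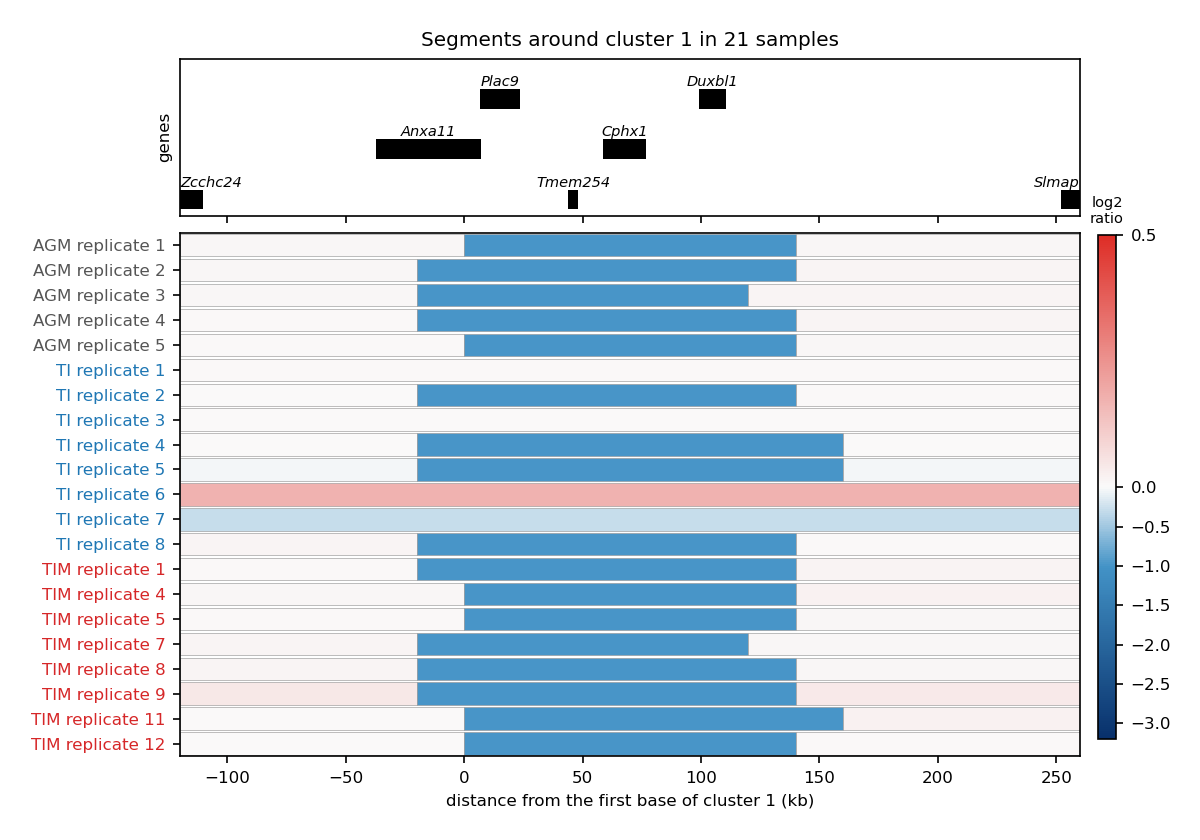
Segments of 21 samples (rows) around cluster 1, coloured by median log2 ratio as blue for lower and red for higher than wildtype adrenal glands, with protein-coding genes above. The x axis is the distance in kb from the first base of cluster 1, AGM labels are grey, TI labels blue and TIM labels red. Loss is seen in 17 rows, begins inside Anxa11 in each of them and ends between Duxbl1 and Slmap.

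The nearest protein-coding genes beside cluster 1 were not lost, and calls in related genes are given beside the share of all genes. Zcchc24, 110 kb before cluster 1, and Slmap, 112 kb behind it, were lost in 0 of 21 samples. Of the 11 other annexin genes 0 were lost in any AGM or TIM sample (0.252% and 0.369% of all protein-coding genes were). In TI 1 was lost, namely Anxa2 on Chr 9 in 1 tumour, against 9.3% of all genes in at least 1 TI tumour. Anxa7 and Anxa8, which also lie on Chr 14, were lost in 0 samples. Gains, at a log2 ratio of at least 0.3, were called for Anxa4 in 2 TI and 3 TIM tumours and for Anxa6 in 1 TI and 1 TIM tumour. That is 2 of 11 genes in each group, against 24% of all protein-coding genes gained in at least 1 TI tumour and 13.7% in at least 1 TIM tumour. Duxf3, another double homeobox gene on Chr 10, was lost in 0 samples.

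A long loss of Chr 14 was present in TI replicate 7 and began beyond the clusters. It ran from 62080001 to the end of the chromosome at 125139656 (63.1 Mb) with a log2 ratio of -0.68 and a copy number of 1.2. Its start lay 36.1 Mb past cluster 1, 18.8 Mb past cluster 2 and 18.3 Mb past cluster 3. All 9 genes were in the segment from 3080001 to 53040000 (49.96 Mb), which had a median of -0.29, a mean of -0.40 and a copy number of 1.6. That median is above the loss threshold and the mean, at -0.4023, just past it, so this tumour would be called at all 3 clusters by the mean or at a threshold of -0.2. No separate segment was cut out at any of the 3 clusters.

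In the same tumour a shorter loss on Chr 14 was called between both long segments. It ran from 53040001 to 53520000 with a log2 ratio of -0.94. Counting this tumour, a loss in that stretch was called in 5 of 5 AGM samples, 5 of 8 TI tumours and 8 of 8 TIM tumours. Inside it the segment from 53280001 to 53380000 was at -5.32 in all 5 AGM samples and in TIM replicates 7 and 8, so deep segments on Chr 14 were not limited to the sides of the gap. TI replicate 7 thus had that focal loss and the long loss. By the segment median it had no call at Anxa11 to Duxbl1, Gm8126 to 1700001F09Rik or Gm5799, which lay in the lowered segment at -0.29.

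Focal losses were also present where the rest of Chr 14 lay slightly above or below the reference level. In TI replicate 6 the segments around clusters 2 and 3 were raised, at 0.17 over 31.6 Mb before and 0.15 behind, with 0.02 in the 0.44 Mb directly before cluster 2. In this tumour Gm8126, Gm8127, 1700001F09Rik and Gm5799 were at -1.00. At cluster 1 the same tumour stayed at 0.17 and had no loss of Plac9, Tmem254, Cphx1 and Duxbl1. In TI replicate 5 the flanks were slightly lower, at -0.03 before cluster 1, -0.05 between clusters 1 and 2 and -0.081 behind cluster 2, and the losses of clusters 1 and 2 were at -1.00. The medians of the called clusters were thus -1.00 in both tumours, whereas the segment means at cluster 2 differed, at -1.48 in TI replicate 6 and -0.86 in TI replicate 5. TI replicate 1, labelled IGF2BP1 +/-, had no focal loss, and its Chr 14 was a single segment at 0.0047.

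**Figure D5:**
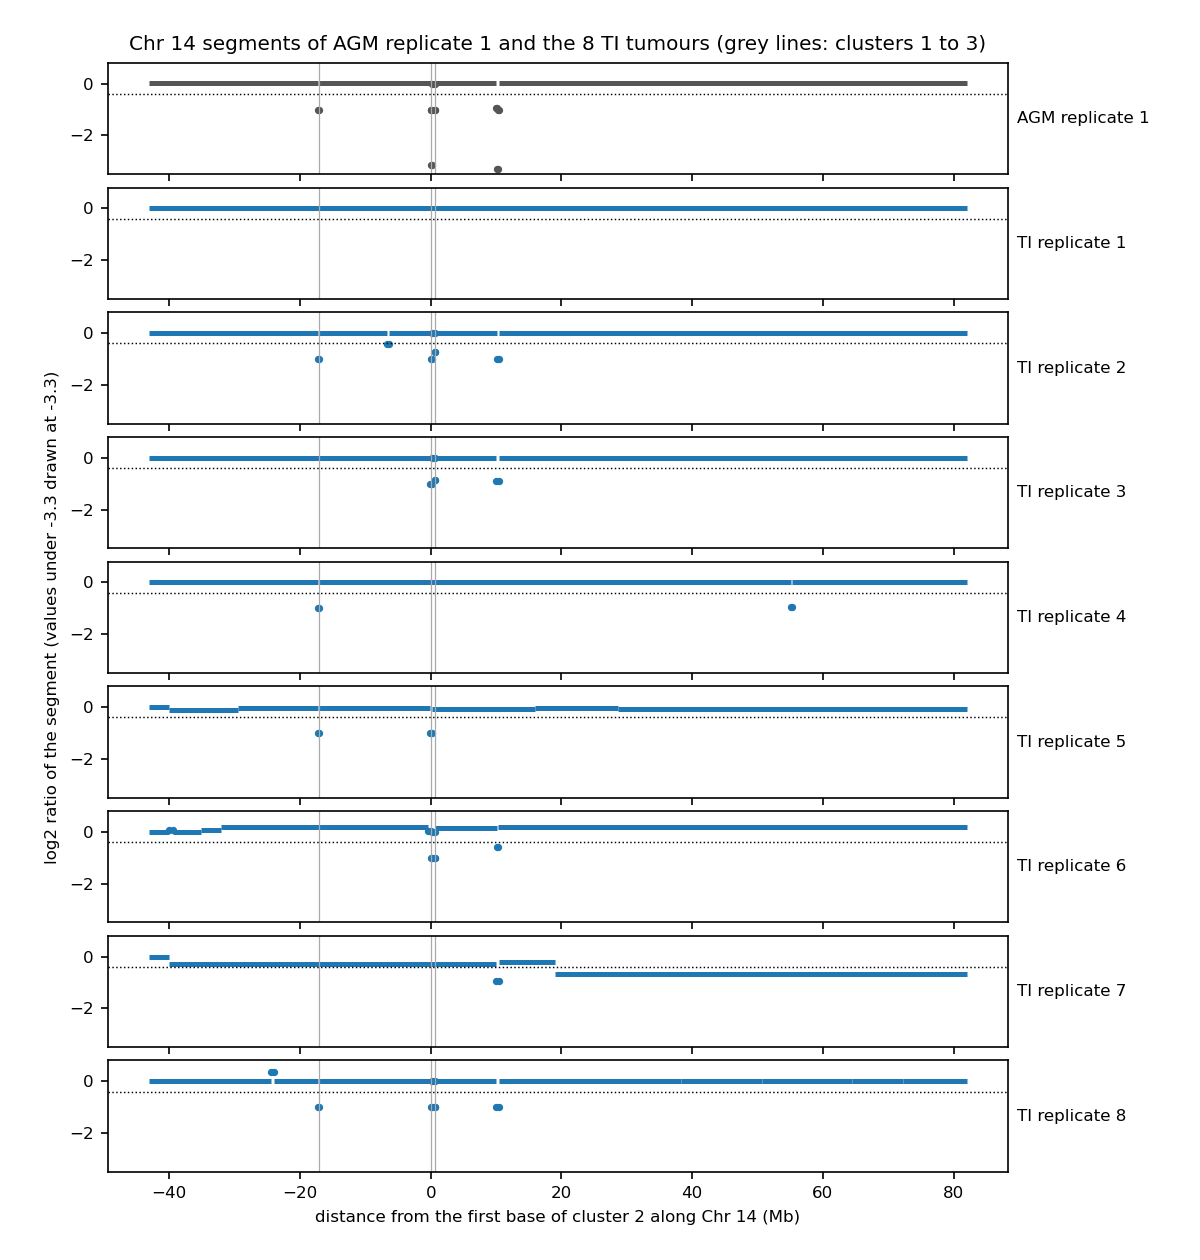
Median log2 ratio of the Chr 14 segments (y axis) along the distance in Mb from the first base of cluster 2 (x axis) in AGM replicate 1 and the 8 TI tumours, with the 3 clusters as grey lines and the loss threshold of -0.4 dotted. Segments under 1 Mb carry a dot and values under -3.3 are drawn at -3.3. The long loss of TI replicate 7 lies to the right of all 3 clusters, and the clusters of this tumour sit on the same level as the sequence around them.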

How the data were processed

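The authors aligned sWGS reads to mm39 with HISAT2 and called copy number with cn.MOPS against the AG adrenal glands. The submitters' processing notes name cutadapt 2.8, HISAT2 2.1.0 and SAMtools 1.10. The deposited values are a median and a mean log2 ratio and a copy number (other unit) for each of 1485 segments. Window length, segmentation settings and the handling of multiply mapped reads are not given in the sources used here. Lengths of 19 of 19 autosomes equalled GRCm39.

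Groups and replicate numbers came from the sample descriptions, title prefixes from the titles. Nothing in the labels says that samples came from separate animals. The members and gene lists were chosen with earlier results of these data known. Named genes are the 9 members, the nearest protein-coding gene on either side, the annexin family and the listed Dux, Cphx, Plac9 and Tmem254 names. A gene was lost when a segment at or under -0.4 (the study's threshold) overlapped it by at least 1 base, and gained when the segment covering most of it was at or above 0.3. A cluster took the value of the segment covering most of it. Alternatives were other thresholds, the segment mean, copy number, coverage limits, subsets of tumours, title prefixes and leaving out each AGM replicate.

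Coding sequences were aligned globally, and 31-mers were counted over Chr 14 of GRCm39. Upstream windows came from RefSeq (GRCm38.p6) and were matched to GRCm39 by exact sequence, so no coordinates were converted. The code for threshold and overlap was run on simulated segments without noise (200 of 200 segment sets recovered). No reads, bins or segmentation were simulated, so this checks the code and not the loss calls. Python 3.11.15, numpy 2.4.6 and pandas 2.3.3 were used.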

Additional observations from a re-analysis of the deposited data

Results flagged for a closer look

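Of 18 sets of values examined per cluster and group, 5 held a sample whose gap to the nearest other exceeded Dixon's 95% critical value. Chance alone gives about 1 in 20 such sets. Here the limit served only to pick out samples: the clusters were chosen from these calls, and most values sit at -1.00 or on the 20 kb grid, so that nearly any departure passes it and it is no test of these values. In TIM replicate 12 the median log2 ratio at cluster 2, with Gm8126 and Gm8127, was -0.88, against -1.00 in the other TIM tumours, and the lost length was 400 kb, against 180 to 200 kb. In TIM replicate 1 cluster 3, with Gm5799, had a median log2 ratio of 0.01, against -1.00 in the other TIM tumours. The lost length at cluster 3 was 120 kb in TI replicate 2, against 100 kb in the other TI tumours with the loss, and 140 kb in TIM replicate 11, against 80 to 100 kb.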

How the results depend on the processing

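Of 84 alternatives of the 9 counts per cluster and group, 81 stayed within 1.5 times the count given and 50 equalled it. The exceptions were the TI tumours with title prefix AGH alone, where 1 of 1 had the loss at cluster 1, cluster 2 and cluster 3. Counts were compared without regard to the number of samples. Leaving out 1 AGM sample therefore could not pass the limit of 1.5 times, and a single tumour could not stay within it. With a threshold of -0.2, or with the segment mean, TI replicate 7 joined at all 3 clusters, which gave 5, 6 and 5 of 8 TI tumours. Of 33 alternatives of the median log2 ratios 31 stayed within 1 SD. The AGM median at cluster 2 moved from -1.00 to -1.55 as a length-weighted mean and to -2.25 for the lowest segment, which is the deep segment beside the gap. Leaving out each AGM replicate kept the loss in 4 of 4 at every cluster. Anxa11 was lost in 11 samples when at least 50% of the gene body was required and in 0 when all of it was. No direction reversed. No paired analysis was possible because the results come from no test between groups. Depth per segment was not analysed here, and the 20 kb grid limits every edge.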
